A study of Mus musculus with 369 samples.

Results

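The lysosomal proton pump, or V-ATPase, was described here through 10 of its genes, Atp6v0d1, Atp6v0d2, Atp6v0c, Atp6v0a1, Atp6v1a, Atp6v1b2, Atp6v1c1, Atp6v1h, Atp6ap1 and Atp6ap2. They were chosen by symbol, and all 10 were found among the 23337 genes of the count table. Whole-transcript RNA of single microglia, the resident macrophages of the brain, had been measured in male mice of C57BL/6J background at postnatal day 7, with the Smart-seq2 method and 1 cell per well. The 4 groups were wild-type or TREM2_KO (here knockout) cells sorted as CD45low CD11b+ without further selection (unselected), and wild-type or knockout cells that also carried Gpnmb and Clec7a on their surface (gated). The submitters' 3 quality criteria left 78 unselected and 90 gated cells of wild type, and 90 unselected and 76 gated knockout cells; runs of 4 values below follow that order. Neither the knockout allele nor the number of animals is given in the sources used here, and each group came from 1 plate, so each group is 1 sample. Plate and animal cannot be told apart from genotype or gate, and no difference below has a replicate check or a p-value.

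The V-ATPase is a rotary machine that uses ATP to pump protons into lysosomes and endosomes. Its cytosolic V1 sector hydrolyses ATP, its membrane V0 sector carries the protons, and acidification lets the lysosomal hydrolases of a phagocyte work. Several subunits have alternative genes, and the d subunit of the V0 stalk is encoded either by the widely expressed Atp6v0d1 or by Atp6v0d2, which is best known from osteoclasts and macrophages. MiT/TFE transcription factors such as Tfeb, Tfe3 and Mitf bind E-box motifs in promoters of many lysosomal genes, pump subunits among them.

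Promoter windows of RefSeq (build GRCm38.p6, from 250 bases before to 50 after an annotated start) were held for 6 of the 10 genes, in 8 windows. None was held for Atp6v0d2, Atp6v1b2, Atp6v1c1 and Atp6v1h. The 8-letter lysosomal E-box TCACGTGA, a palindrome that contains the core CACGTG, was in the windows of Atp6v0d1 and Atp6v1a, against 0.974% of the 32851 windows in the table. The related M-box TCATGTGA, searched on both strands, was in 1 of the 3 windows of Atp6v0c, against 0.986% of all windows. Neither of these motifs was in the windows of Atp6v0a1, Atp6ap1 and Atp6ap2, while the AP-1 motif TGANTCA was in that of Atp6v0a1 (7.81% of all windows). The windows of Atp6v0a1 (chr11:101010148-101010447) and Atp6v1a (chr16:44139210-44139509) lie within the GENCODE M21 spans given for these genes below. Bases before the outermost GENCODE start of either gene were therefore not searched. The promoters of Atp6v0d1, Atp6v1a and Atp6v0c are shown because these are the members with a lysosomal E-box or an M-box in a window. Each stretch runs from 150 bases before to 30 bases after the start, 5′ to 3′ on the gene's strand, with the motif in capitals.
Atp6v0d1 (chr8:105566035-105566214, minus strand, lysosomal E-box beginning 4 bases before the start): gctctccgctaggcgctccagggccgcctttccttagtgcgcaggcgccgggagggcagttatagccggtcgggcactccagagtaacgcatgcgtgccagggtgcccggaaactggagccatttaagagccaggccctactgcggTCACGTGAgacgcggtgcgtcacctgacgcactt
Atp6v1a (chr16:44139230-44139409, minus strand, lysosomal E-box beginning 132 bases before the start): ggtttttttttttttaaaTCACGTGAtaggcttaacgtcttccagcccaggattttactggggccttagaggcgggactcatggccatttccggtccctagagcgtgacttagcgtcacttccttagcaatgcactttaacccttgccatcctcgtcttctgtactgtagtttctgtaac
Atp6v0c (chr17:24169421-24169600, minus strand, M-box beginning 17 bases before the start): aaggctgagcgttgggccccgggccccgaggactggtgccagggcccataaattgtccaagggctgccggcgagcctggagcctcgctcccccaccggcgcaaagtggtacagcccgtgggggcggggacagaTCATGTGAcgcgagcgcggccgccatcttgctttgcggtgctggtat
A match describes the letters of a window and shows no binding.

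Levels are given as CPM, the counts summed over the cells of a group and scaled to 1000000 gene counts, with the lowest, median and highest cell beside them. Passing cells held 157653 to 1051282 gene counts each. Cells of the 4 groups had medians of 2607.5, 3162.5, 2184 and 3995 detected genes, so the share of cells with a count was taken after thinning every cell to 100000 gene counts. In a summed level, fewer cells with the RNA and less RNA per cell cannot be told apart, so that share stands beside it. Trem2 itself was at 1115 CPM in wild-type unselected and 1604 CPM in wild-type gated cells, and at 229 and 413 CPM in the knockout unselected and gated cells. The microglial markers P2ry12 and Tmem119 were measured in every group, at 5263, 1782, 5418 and 729 CPM for P2ry12 and at 2222, 369.6, 2107 and 111 CPM for Tmem119. All 8 microglial markers listed summed to 42639, 29683, 42725 and 22316 CPM. Among them Fcrls differed less, at 4633, 4005, 5212 and 4325 CPM. The 10 markers of border-associated macrophages, another brain macrophage, summed to 843 and 902 CPM in wild-type and knockout unselected cells (3 of 10 at 5 CPM or more in each) and to 2042 and 2095 CPM in the gated cells (10 of 10 in each). The median cell sum of these markers was 712, 992, 705 and 1666 CPM. Some of the gated levels rest on few cells. In knockout gated cells, 1 cell held all Cd163 counts and 1 cell held 66.6% of the Cbr2 counts. In wild-type gated cells, 1 cell held 43.9% of the F13a1 counts. Folr2, in contrast, had a count in 60 of 76 knockout gated cells after thinning. The part of these markers in the gate differences was not tested. Markers of monocytes, neutrophils, neurons, astrocytes, the oligodendrocyte lineage and endothelium summed to at most 49.6 CPM per list in any group. Single passing cells went higher, up to 1463 CPM (oligodendrocyte lineage) and 1234 CPM (neurons) in knockout unselected cells. In wild-type unselected cells the astrocyte markers reached 1020 CPM. The lowest microglial sum of a knockout unselected cell was 668 CPM, beside a median of 43340 CPM.

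Over the whole set, Atp6v0d2 differed most between the groups, and the other subunits differed by less than 2-fold in most comparisons. A gene was called higher or lower when its log2 ratio of (CPM + 1) reached 1 in size and the mean CPM per cell had the same direction; that rule sets a size and tests nothing. In wild-type cells, Atp6v0d2 and Atp6v1c1 were higher with the gate and no member was lower, 2 of 10 against 15.2% of the 10554 measured genes (5 CPM or more in any group) called higher and 19.9% called lower. In knockout cells, Atp6v0d2 and Atp6v1a were higher with the gate and none was lower, against 12.4% and 22% of measured genes. The only member called between genotypes was Atp6v0d2, higher in the knockout cells of both gates, where 29.8% of measured genes were called in either direction in unselected cells and 23.5% in gated cells. Counts of 2 and 1 among 10 are near these background shares. The median log2 difference of the 10 members with the gate was 0.57 in wild type and 0.58 in knockout, beside -0.12 and -0.26 over all measured genes. In wild type 7 members were above 0, beside 4571 of the 10554 measured genes, and in knockout 10 members, beside 4058. Between genotypes the members' median was -0.06 in unselected and 0.15 in gated cells, beside 0.05 and 0.00 over all measured genes.

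Scaling moves these totals. With spike-in RNA as the reference, the median of all measured genes shifts to 0.32 and 1.01 for the gate in wild type and knockout, and to -0.38 and 0.35 for the genotype in unselected and gated cells. The members' median minus that of all genes is less moved by this scaling: 0.69 and 0.84 with the gate by total counts, and 0.71 and 0.89 by spike-ins. The split of all genes, higher then lower, becomes 24.5% and 12.2% for the gate in wild type, 50.5% and 4.37% for the gate in knockout, 9.59% and 22.3% for the genotype in unselected cells (16.5% and 13.3% by total counts) and 20.2% and 8.37% for the genotype in gated cells (11.4% and 12.08%). With edgeR's TMM factors it is 18.1% and 16.4% for the gate in wild type and 16.3% and 15.7% for the gate in knockout. The members' median minus that of all genes moves more under some other choices. In cells with 2500 to 3500 detected genes it is 0.48 and 0.47 with the gate. By the median CPM per cell it is 0.61 and 1.07 with the gate, and -1.80 in place of 0.15 between genotypes in gated cells.

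**Figure D1:**
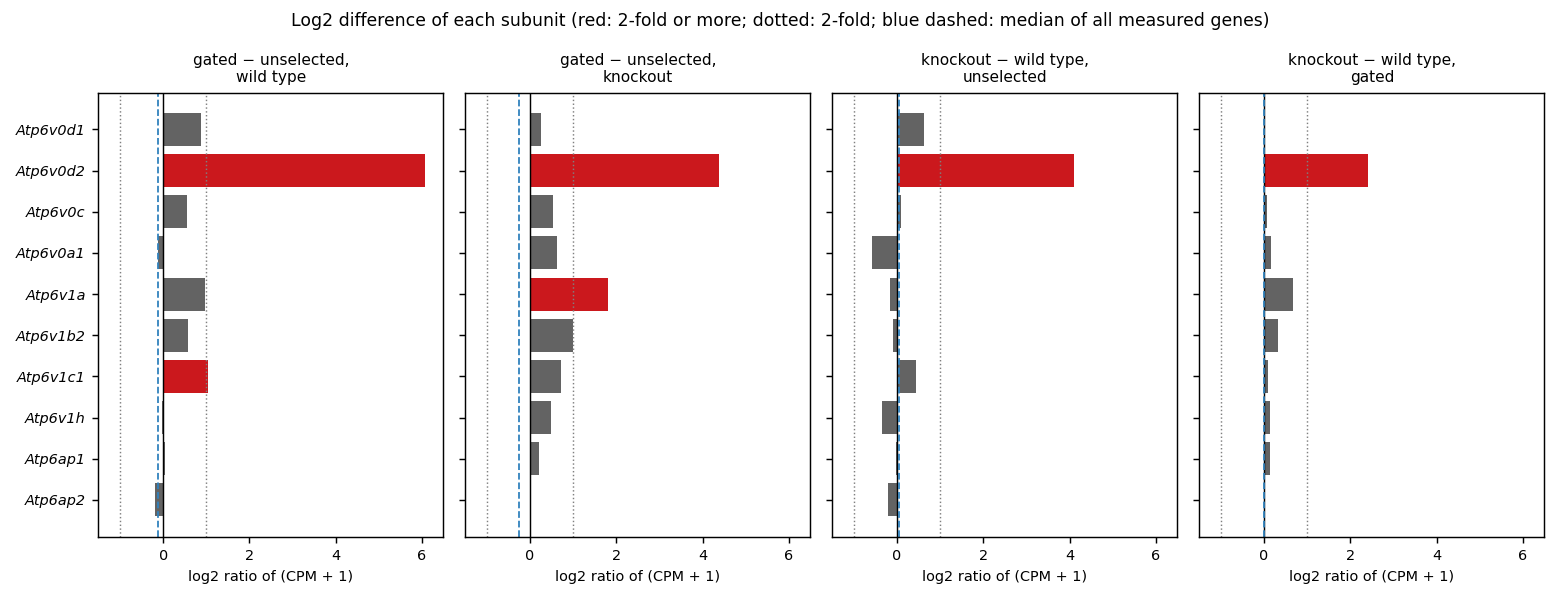
Log2 ratio of (CPM + 1) of each subunit (x axis) in the 4 comparisons, from counts summed over a group; red bars reach 2-fold, dotted lines mark 2-fold, and the blue dashed line is the median of all measured genes. The bar of Atp6v0d2 is the longest in each panel, and its length against wild-type unselected cells, where it has 0 counts, depends on the 1 CPM added.

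Atp6v0d2 (chr4:19876841-19922605, minus strand, build GRCm38 with GENCODE M21) had 0 counts in all 78 wild-type unselected cells, which allows at most 0.0770 CPM for the group (3 counts) and up to 3.85% of cells having a count, which is not a limit on cells that express the gene. In wild-type gated cells the summed level was 65.9 CPM (95% Poisson interval 63.7 to 68.1), with a median cell at 0 and the highest at 1752 CPM. Knockout unselected cells were at 16.1 CPM, and all 914 counts came from 1 of the 90 cells. In knockout gated cells the level was 353 CPM (348 to 358), with a median cell at 12.09 and the highest at 2845 CPM. Every wild-type unselected cell and all but 1 knockout unselected cell were at 0, and gated cells ranged from 0 to levels above those of Atp6v0d1. After thinning, a count was found in 13 of 90 wild-type gated cells (14.4%, Clopper-Pearson 95% interval 7.92 to 23.4%), 1 of 90 knockout unselected cells (1.11%) and 38 of 76 knockout gated cells (50.0%, 38.3 to 61.7%). All intervals here cover counting error only, not the spread between animals or plates, and PCR copies are not independent molecules.

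Against the 3-count limit, the gate difference of Atp6v0d2 in wild type was at least 856-fold, with the gated cells higher. Leaving out the cell with the most counts, which held 29.1% of the gated group's counts, the log2 ratio of (CPM + 1) was 5.59 in place of 6.06. In knockout cells the gate difference was 4.37 (20.7-fold), and 8.31 without the top cell of each group, because the unselected group then has 0 counts. Between the gated groups, knockout cells were 2.40 higher on the log2 scale (5.29-fold, counting interval 2.37 to 2.47), and 2.72 without the top cells. These groups also differed in RNA of the genes of the gate. Gpnmb was at 1697 CPM in wild-type and 4233 CPM in knockout gated cells, and Clec7a at 346 and 594 CPM. The part of this in the Atp6v0d2 difference was not tested. Among the unselected groups the knockout level rested on that 1 cell, and without it both groups are at 0.

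The 1 knockout unselected cell with Atp6v0d2 had 1154 CPM of it and 87.2 CPM of Atp6v0d1. Its Gpnmb (2777 CPM) and Spp1 (44907 CPM), both at a median of 0 in its group, were the highest of the 90 cells, although it had been sorted without the Gpnmb and Clec7a gate. Its P2ry12, a receptor of homeostatic microglia, was at 217 CPM beside a group median of 4745 CPM, and it held 4312 detected genes beside a median of 2184. It was also 1 of 15 knockout unselected cells with a count of 3 or more of 8 border-associated macrophage markers after thinning. These 8 were Mrc1, Lyve1, Cd163, Cbr2, F13a1, Stab1, Siglec1 and Folr2. In this cell Mrc1 was at 231 CPM (rank 38 in its group, median 24.5 CPM), and Lyve1, Cd163 and a further such marker, Pf4, were at 0. The tally therefore does not name its cell type.

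Cells with border-associated macrophage markers were set beside Atp6v0d2. In 31 of 90 wild-type gated and 53 of 76 knockout gated cells, 3 or more of 8 such markers had a count after thinning. Atp6v0d2 was found in 0 of these 31 and in 13 of the other 59 wild-type gated cells, and in 23 of these 53 and 15 of the other 23 knockout gated cells. Without the marker-bearing cells, the level of Atp6v0d2 was 0, 102, 0 and 542 CPM, and the genotype difference in gated cells was 2.39 on the log2 scale. In cells matched for detected genes (2500 to 3500), which numbered 16, 24, 21 and 19, it was 0, 82.99, 0 and 455 CPM.

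Atp6v0d1 (chr8:105524465-105566047, minus strand), the widely expressed form of the d subunit, was found in every group. Its summed level was 67.5 CPM in unselected (median cell 32.6, highest 776) and 124 CPM in gated wild-type cells (median 81.4, highest 630), and 105 CPM in unselected (36.1, 542) and 127 CPM in gated knockout cells (124, 296). The lowest cell was at 0 in each of the 4 groups, as for each other member and group except Atp6v0c in knockout gated cells. The groups overlap over their cells. A count was found in 43 of 78, 76 of 90, 54 of 90 and 72 of 76 cells after thinning. The gate difference was 0.87 on the log2 scale in wild type and 0.26 in knockout, and the genotype difference was 0.63 in unselected and 0.03 in gated cells. In wild type it passed 1, among other alternatives, with TMM factors (1.05) and without the marker-bearing cells (1.09).

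Of all counts of the d pair, Atp6v0d2 made up 0% in unselected (up to 0.140%) and 34.7% in gated (33.8 to 35.6%) wild-type cells, and 13.2% in unselected and 73.6% in gated (73.03 to 74.1%) knockout cells. Per kilobase of transcript, with lengths of 2539 bases for Atp6v0d2 and 1629 bases for Atp6v0d1, the shares were 0, 25.4, 8.91 and 64.1%. Atp6v0d1 was at 76.2 and 77.7 CPM per kilobase in wild-type and knockout gated cells, whereas Atp6v0d2 was at 25.96 and 139.

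**Figure D2:**
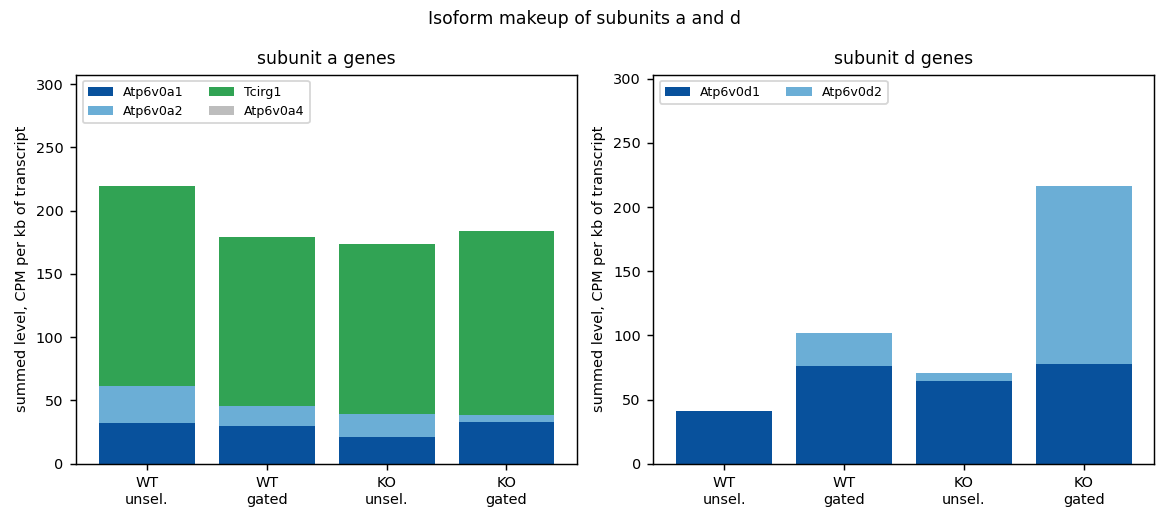
Summed levels in CPM per kilobase of transcript (y axis, from 0) of the genes for subunit a (left) and subunit d (right) in the 4 groups. Tcirg1 makes up 72.0 to 78.9% of subunit a in each group, whereas the Atp6v0d2 share of subunit d runs from 0 to 64.1%.

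Most gated cells with a count of Atp6v0d2 also had a count of Atp6v0d1. After thinning, both genes had a count in 12 wild-type gated cells, 64 had Atp6v0d1 alone, 1 had Atp6v0d2 alone and 13 had neither. In knockout gated cells the numbers were 36, 36, 2 and 2. Among unthinned cells with Atp6v0d2, it gave more counts than Atp6v0d1 in 7 of 19 wild-type gated and 31 of 43 knockout gated cells, with a median share of 34.6% and 77.8% in those cells. The share ran from 0.962 to 99.9% in the wild-type gated and from 0.735 to 99.6% in the knockout gated cells. Replacement of Atp6v0d1 within a cell was not tested. Across cells the correlation of the 2 genes was weak (Pearson r = 0.09 over 90 wild-type gated and 0.14 over 76 knockout gated cells), which is a description of cells that share a plate.

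**Figure D3:**
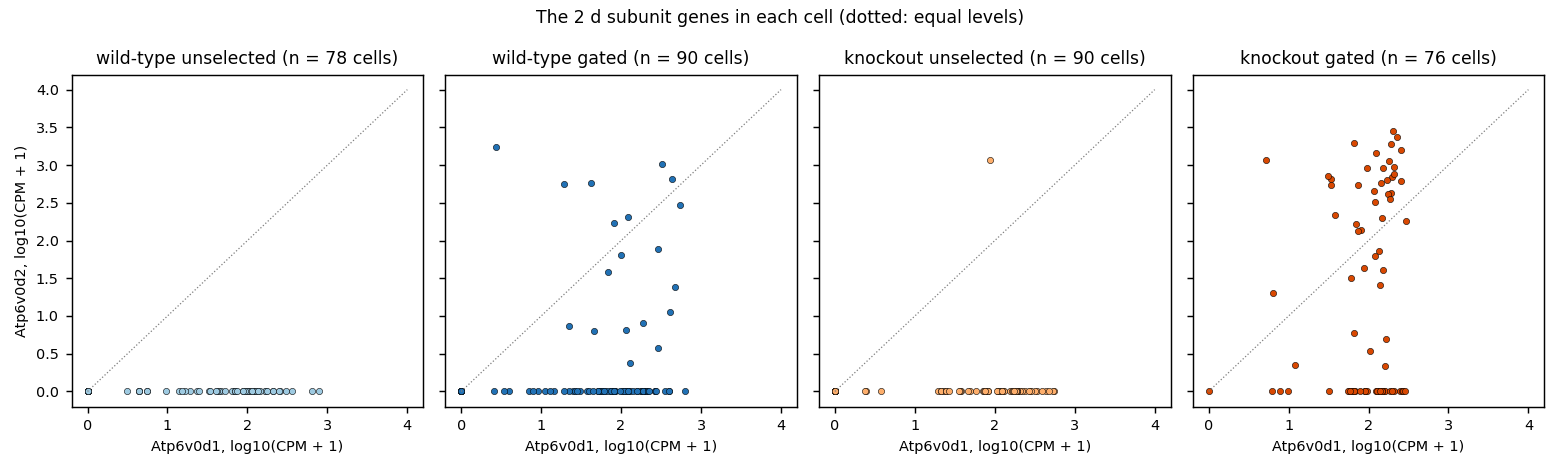
Level of Atp6v0d1 (x axis) against Atp6v0d2 (y axis) in each cell, as log10(CPM + 1), with 1 panel per group and a dotted line of equal levels. All 78 wild-type unselected cells lie at 0 on the y axis, 1 of 90 knockout unselected cells lies above it, and 43 of 76 knockout gated cells do.

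The other V0 members differed less. Atp6v0c (chr17:24163866-24169702, minus strand) encodes the main proteolipid of the rotating ring. Its level was 60.9, 90.2, 65.04 and 94.3 CPM, with median cells at 56.7, 86.0, 55.7 and 92.6 and highest cells at 270.1, 261, 224 and 162 CPM. It was the most evenly found member, with a count in 76 of 76 knockout gated cells and a lowest cell there at 10.5 CPM. The gate difference was alike in size in wild type (0.56) and knockout (0.53), and the genotype differences were 0.09 and 0.06. The listed pseudogene Atp6v0c-ps2 had 0 counts in every group, but reads shared with near-identical copies make the level of Atp6v0c uncertain.

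Atp6v0a1 (chr11:101009452-101063719, plus strand) encodes one form of subunit a, which lines the path of the protons. It was at 128, 119, 85.01 and 132 CPM, with median cells at 25.5, 40.2, 0 and 120 CPM and highest cells at 907, 972, 1017 and 545 CPM. Its gate difference was -0.11 in wild type and 0.63 in knockout, and its genotype difference in unselected cells was -0.59. In cells matched for detected genes the last of these was 0.10, and the wild-type gate difference changed sign with TMM factors (0.06) and without the marker-bearing cells (0.14). Per kilobase, Atp6v0a1 was a minor form beside Tcirg1, which encodes the a3 form known from osteoclasts and lysosomes and held 72.0, 74.6, 77.2 and 78.9% of subunit a. A further form, Atp6v0a2, which is known from the Golgi, went from 29.5 to 15.8 CPM per kilobase with the gate in wild type and from 18.4 to 5.74 in knockout. Atp6v0a4, the kidney form, had 0 counts in each group.

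**Figure D4:**
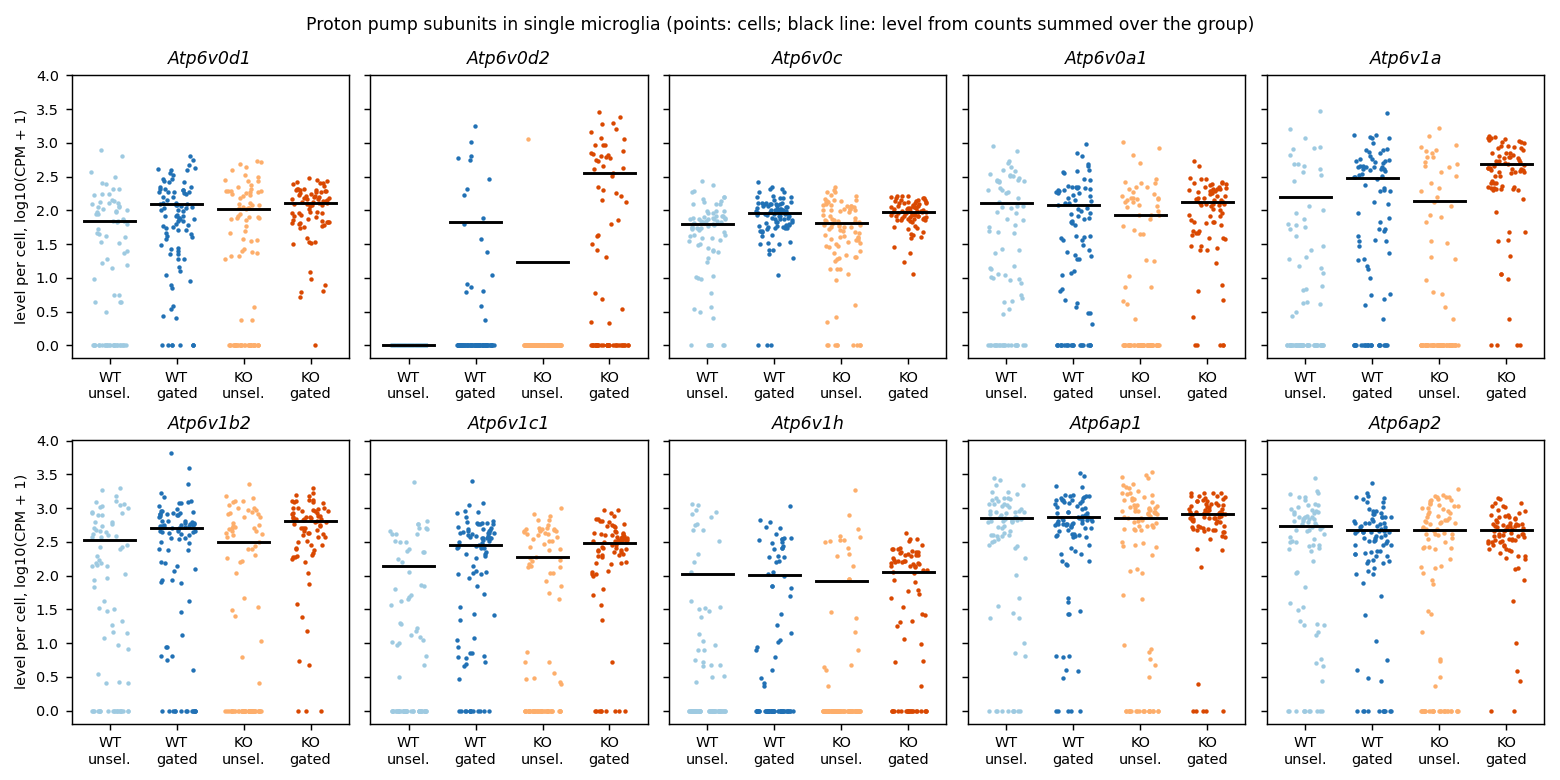
Level of each of the 10 subunits in every passing cell (points), as log10(CPM + 1), by group; the black line is the level from counts summed over the group. Atp6v0d2 lies at 0 in all wild-type unselected cells, and knockout gated cells have fewer zeros than the other groups for 9 of the 10 subunits.

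Among the V1 members, Atp6v1a (chr16:44085402-44139705, minus strand), the catalytic A subunit, differed most. Its level was 155 CPM in unselected (median cell 0, highest 2995) and 303 CPM in gated wild-type cells (84.1, 2776), and 137 CPM in unselected (0, 1644) and 483 CPM in gated knockout cells (399, 1262). A count was found in 33 of 78, 63 of 90, 29 of 90 and 71 of 76 cells after thinning. In knockout cells the gate difference was 1.81 on the log2 scale (3.496-fold, counting interval 1.78 to 1.85), with 1.84 without the marker-bearing cells and 2.01 in cells matched for detected genes. In wild type it was 0.96, just short of 2-fold, with 1.14 by TMM and 2.51 in the matched cells. The genotype difference was 0.67 in gated cells and -0.17 in unselected cells.

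Atp6v1b2 (chr8:69088646-69113711, plus strand), the B subunit that shares the ATP-binding ring with A, was at 339, 505, 319 and 634 CPM, with median cells at 121, 449, 3.42 and 600 CPM and highest cells at 1952, 6599, 2271 and 1967 CPM. The gate difference was 0.57 in wild type and 0.99 in knockout; the second lies at the 2-fold line and passed it in 8 of 14 alternatives. The kidney and inner ear form, Atp6v1b1, had 0 counts in all groups. For both subunits of the ATP-binding ring, the level of gated cells lay above that of unselected cells in either genotype, under each alternative run. The same held for Atp6v0c and Atp6v1c1, and for the further subunit genes Atp6v1g1 and Atp6v0e, so it is not particular to the ring.

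Atp6v1c1 (chr15:38661933-38692446, plus strand) encodes the C subunit, which ties V1 to V0 when the pump assembles. It was at 139, 287, 187 and 307 CPM, with median cells at 6.84, 260.0, 4.23 and 284 CPM and highest cells at 2447, 2486, 996 and 937 CPM. In the wild-type unselected group 26% of its counts came from 1 cell. The gate difference was 1.05 in wild type and 0.71 in knockout. The first became 1.42 without the top cell of each group, 0.96 without the marker-bearing cells and 0.03 in cells matched for detected genes, so the 2-fold call is lost in the last 2 of these.

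Atp6v1h (chr1:5070018-5162529, plus strand) encodes the H subunit, which holds back ATP hydrolysis by V1 that is not bound to V0. Its summed level differed little, at 104, 103, 81.5 and 114 CPM, with highest cells at 1136, 1063, 1843 and 428 CPM. The median cell was at 0 in 3 groups and at 96.9 CPM in knockout gated cells, and 28.9% of the knockout unselected counts came from 1 cell. A count was found in 23 of 78, 34 of 90, 22 of 90 and 52 of 76 cells after thinning. The gate difference was -0.02 in wild type and 0.47 in knockout, and the latter turned to -1.87 in cells matched for detected genes.

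Of the accessory subunits, Atp6ap1 had the highest level of the 10 members in each. Atp6ap1 (chrX:74297097-74304721, plus strand) encodes a V0-bound protein needed for assembly of the pump. Its level was 715, 737, 704 and 815 CPM, with median cells at 647, 590, 575 and 770 CPM. Atp6ap2 (chrX:12587801-12617049, plus strand), the (pro)renin receptor, was at 547, 477, 471 and 478 CPM, with median cells at 391, 356, 333 and 417 CPM. Their log2 differences lay between -0.22 and 0.21 in all 4 comparisons by total counts; spike-in scaling moves the gate difference in knockout to 1.55 for Atp6ap1 and 1.35 for Atp6ap2.

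The share of cells with a count was higher in knockout gated than in knockout unselected cells for all 10 members, by a median of 39.7 percentage points, beside 11.96 points over all measured genes, of which 87.4% were higher. In wild type the members' median difference with the gate was 8.42 points, beside 0.342 over all measured genes, with all 10 members and 51.6% of measured genes higher. Cells matched for detected genes had smaller differences, 22.6 points for the members and 2.26 for all measured genes in knockout, and 7.29 and 0 points in wild type, where 8 of the 10 members were higher. In those cells Atp6v1a had a count in 4 of 16, 16 of 24, 9 of 21 and 16 of 19 cells. The number of detected genes therefore moves with the gate and with these shares; its part in them was not tested.

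**Figure D5:**
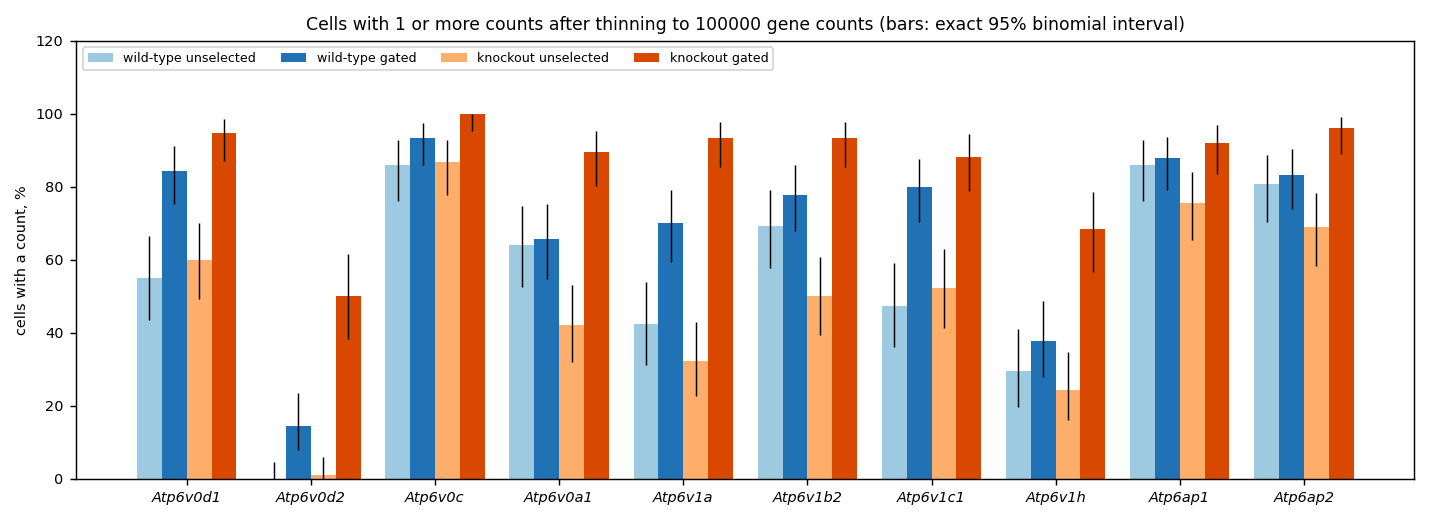
Share of cells with 1 or more counts after thinning each cell to 100000 gene counts (y axis, %), for the 10 subunits in the 4 groups, with exact 95% binomial intervals that cover counting error only. Knockout gated cells have the highest share for each subunit, and Atp6v0d2 is the member with the lowest share in all 4 groups.

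Per kilobase of transcript, Atp6ap1 had the highest level in each group (327, 337, 322 and 372 CPM per kilobase). Atp6ap2 came next in 3 groups (235, 205 and 203), and in knockout gated cells Atp6v1b2 (224) came before it (206). The ring and stalk subunits Atp6v0c, Atp6v0d1 and Atp6v1a lay lower, at 32.5 to 114 CPM per kilobase, and Atp6v0a1 at 21.2 to 33.1. Atp6v0d2 was the last of the 10 in 3 groups and the fifth in knockout gated cells (139, between Atp6v1c1 at 148 and Atp6v1a at 114). The counting intervals of Atp6v0c and its next neighbour overlapped in 3 groups, with Atp6v1h in wild-type unselected and Atp6v0d1 in both gated groups. Quartile ranges over cells overlapped between most neighbours, so the order is one of summed levels and not of single cells.

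Of 15 further subunit genes, 9 were measured. With the gate, 1 was higher and 1 lower in wild type and 0 and 1 in knockout; between genotypes, 0 and 0 in unselected and 0 and 1 in gated cells. Atp6v1g1, a stalk subunit, went from 159 to 326 CPM with the gate in wild type (1.04) and from 233 to 337 CPM in knockout (0.53). Atp6v0e, a small V0 subunit, went from 130 to 183 and from 127 to 224 CPM (0.49 and 0.82). Atp6v0a2 was the gene called lower with the gate in knockout (-1.65) and between genotypes in gated cells (-1.43). The gene called lower in wild type was Atp6v1g2, at 5.72 and 1.30 CPM (-1.55), whose difference was 1.93 in the matched cells. The tissue-restricted forms Atp6v1e2 and Atp6v1g3 had 0 counts, as did Atp6v0a4 and Atp6v1b1, and Atp6v0e2 had counts (117) in knockout gated cells alone.

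The genes around the pump gave mixed counts. Of 11 assembly factors, 0 were higher and 1 lower with the gate in wild type, 1 and 1 in knockout, 1 and 1 between genotypes in unselected cells and 2 and 0 in gated cells. Rogdi, a part of the RAVE-like assembly complex, was at 411, 224, 352 and 125.0 CPM, and its gate difference in knockout was -1.48. Ncoa7, a TLDc-domain protein that binds the pump, was at 21.2, 4.00, 0 and 10.3 CPM. Of 12 lysosomal channels and exchangers, 2 were higher and 1 lower with the gate in both genotypes, and 1 and 1 in unselected and 1 and 2 in gated cells between genotypes. The cation channel Mcoln3 was at 0 in unselected wild-type cells and at 7.89, 0.158 and 42.2 CPM in the other groups. Its relative Mcoln2 was at 9.42, 30.0, 0.0176 and 5.60 CPM. In the matched cells its gate difference in wild type was -2.26 in place of 1.57. The genes called lower with the gate were the channel Tpcn2 in wild type (55.2 to 22.6 CPM) and the exchanger Clcn6 in knockout (13.5 to 5.90 CPM, and 0.13 on the log2 scale by spike-ins).

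Of 12 measured genes of the nutrient-sensing complex that docks on the pump, 3 were higher and 1 lower with the gate in wild type and 2 and 0 in knockout; 0 and 1 differed between genotypes in unselected cells and 1 and 0 in gated cells. Rragc, a Rag GTPase, went from 57.1 to 127 CPM with the gate in wild type (1.13) and from 91.2 to 248 CPM in knockout (1.43). Its relative Rragd went from 0.257 to 12.7 CPM and from 0 to 14.1 CPM, at least 268-fold in knockout against the 3-count limit. Lamtor2, a scaffold of the complex, was at 34.4, 72.2, 51.2 and 77.7 CPM, and Rraga, the lower gene, at 33.5, 7.53, 6.92 and 9.07 CPM. Of the 4 MiT/TFE genes, none was called with the gate in wild type and 1 was higher in each other comparison. That gene was Tfec with the gate in knockout (15.3 to 35.5 CPM) and between genotypes in gated cells. The first of these calls held in 10 of 14 alternatives and the second in 11, and both were lost without the marker-bearing cells. Between genotypes in unselected cells the gene was Tfeb (8.57 to 21.04 CPM, a difference that was -2.53 in the matched cells). Tfe3 was at 146 to 178 CPM and Mitf at 32.5 to 37.2 CPM over the 4 groups.

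Osteoclasts use Atp6v0d2 together with Tcirg1, so 12 osteoclast genes were set beside it. Of these, 6 were measured, and 2 were higher and 1 lower with the gate in wild type, 1 and 1 in knockout, 1 and 0 between genotypes in unselected cells and 0 and 1 in gated cells. Acp5, the tartrate-resistant acid phosphatase, had 0 counts in both unselected groups and was at 18.8 CPM in wild-type gated and 16.7 CPM in knockout gated cells. Its counts came from 10 of 90 wild-type gated cells, 1 of which held 46.1% of them, and from 21 of 76 knockout gated cells. Ctsk, Calcr, Dcstamp and Oscar had 0 counts in all 4 groups. Ocstamp (3.65 CPM) and Mmp9 (3.14 CPM) had counts in wild-type gated cells alone. Car2, a carbonic anhydrase, was at 1.82, 17.4, 24.4 and 1.17 CPM, and rested on few cells: without the top cell of each group its gate difference in knockout was 0.00 in place of -3.55, and its genotype difference in unselected cells -1.01 in place of 3.17. The integrin gene Itgb3 was at 30.3, 11.9, 31.4 and 16.6 CPM. Nfatc1 was at 39.97 to 59.96 CPM, with no call in any comparison.

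Across cells of a group the subunits varied together weakly. Over the 36 pairs of the 9 members other than Atp6v0d2, the median Pearson r of log2(CPM + 1) was 0.04, 0.16, 0.13 and 0.22; by Spearman it was 0.03, 0.11, 0.11 and 0.13. The highest pair was Atp6v0c with Atp6v1a in knockout gated cells (r = 0.49, n = 76). In the same cells, Atp6v0c and Atp6v1a had r = 0.45 and 0.32 with the number of detected genes, a property that the pairs share. Correlations this weak in sparse counts are no finding.

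Of 3762 genes with a count in at least 25% of both kinds of gated cells, those most like Atp6v0d2 by the smaller of 2 correlations (wild-type gated, then knockout gated) were Stx6 (0.35 and 0.37), Fabp5 (0.37 and 0.35), Pgs1 (0.29 and 0.34), Slc25a10 (0.35 and 0.29) and Cd83 (0.32 and 0.28), where the median gene had 0.04 and 0.05. For the summed level of the other 9 members they were Atox1 (0.33 and 0.33), Aldh9a1 (0.32 and 0.40), Rnf13 (0.31 and 0.35), Ddb1 (0.31 and 0.46) and Ap2m1 (0.32 and 0.29), where the median gene had 0.05 and 0.11. The lists share no gene, but lists of 5 drawn from 3762 genes would seldom share one, so nothing is drawn from that. With Gpnmb, a gene of the gate, Atp6v0d2 had r = 0.20 over 90 wild-type gated and 0.30 over 76 knockout gated cells, and with the summed border-associated macrophage markers -0.12 and -0.22.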

How the data were processed

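Single microglia were sorted into multiwell plates and sequenced by Smart-seq2, per the labels' protocols. The authors deposited whole-number read counts for 23337 genes and 92 spike-in RNAs in 369 cells. The submitters' processing notes name Trim Galore 0.4.3, STAR 2.5.3a, Picard, HTSeq and build mm10. No source used here gives the annotation, the use of strand or the handling of reads that match several genes. The column sums of all 369 cells equal the labelled totals, no 2 columns are identical, and the 334 cells that met all quality criteria entered the comparisons.

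Counts were summed over each group and scaled to CPM by the group's gene counts, spike-ins excluded. Differences are log2 ratios with 1 CPM added. Levels carry exact Poisson intervals, differences a conditional binomial interval, and shares Clopper-Pearson intervals, at 95%. Thinning used seed 7. Per-kilobase values use the length of the principal transcript in GENCODE M21 (GRCm38, the same build as mm10). Of 128 symbols listed, 127 were matched, 5 of them through an older symbol. Work was done in Python 3.11.15 (numpy 2.4.6, pandas 2.3.3, scipy 1.17.1) and R 4.3.3 with edgeR 4.0.16, which was used for TMM factors only. The level and difference steps were tested on simulated data. No test across groups was made, since each group is 1 sample. Depth was 184903 to 1025631 gene counts per cell in wild-type unselected, 198374 to 911880 in wild-type gated, 157653 to 1051282 in knockout unselected and 186916 to 1030469 in knockout gated cells, so that 3 counts are worth 0.0527 to 0.0770 CPM over a group.

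The members and gene lists were chosen with earlier results of these data known. All 10 members are named; from each list up to 4 measured genes with the largest gate difference could be named, and for likeness the 5 genes with the highest smaller correlation. Tcirg1, tissue-restricted subunit genes and osteoclast markers at 0 were added after their values were seen. The alternatives were other scalings, pseudocounts and measuring levels, means or medians over cells, thinned cells, and other choices of cells. The per-kilobase shares were added after seeing the data.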

Additional observations from a re-analysis of the deposited data

Results flagged for a closer look

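Atp6v0d2 also had counts in cells outside the comparisons. Among 17 knockout gated cells that failed the quality criteria, 5 held 106 counts of the gene in all, while the failing cells of the other groups (12 wild-type unselected, 3 wild-type gated and 3 knockout unselected) held 0. The counts were 62 in a cell with 107863 gene counts, 28 in one with 105681, 10 in one with 119579, 5 in one with 142318 and 1 in one with 1011. The failing knockout gated cells had a median of 399 gene counts, and the failing wild-type unselected cells 106006.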

How the results depend on the processing

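No paired analysis was possible because the labels give no replicate numbers or animals and each group is 1 sample. Of 148 values of 12 results under 16 alternatives, 111 kept to the rule of size or to the interval. Some of these could not change. The Atp6v0d2 share in wild-type unselected cells rests on 0 counts, and the other measuring levels leave every member measured. The number of members called higher with the gate in wild type (2) was 4 by the median CPM per cell, TMM factors and median-of-ratios factors, and 6 by spike-ins. With the gate in knockout (2 higher, 0 lower) it was 7 by the median and 10 by spike-ins, with 1 lower in cells with 2500 to 3500 detected genes. Between genotypes in unselected cells (1 higher, 0 lower) it was 0 by the median, without marker-bearing cells and without the top cell, and 2 in the matched cells, with 2 lower by the median and 1 lower by spike-ins. In gated cells (1 higher, 0 lower) it was 4 by the median and 2 by spike-ins, with 1 lower in the matched cells. By the median, 24.2% of 2960 measured genes were higher with the gate in wild type and 39.9% in knockout. Between genotypes, 3.75% were higher and 19.7% lower in unselected cells, and 41.7% were higher in gated cells. By median-of-ratios factors, 17.6% were higher with the gate in wild type. In the matched cells, 30.6% were lower with the gate in knockout and 24.9% between genotypes in gated cells. There 29.5% were higher between genotypes in unselected cells.

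The Atp6v0d2 share of the d pair in wild-type gated cells (34.7%) was 42.4% without marker-bearing cells, 44.4% in the matched cells, 28.6% without the top cell, 30.4% in thinned cells, 32.8% by mean CPM, 0% by median CPM, and per kilobase 25.4% by principal transcript or 25.95% by all exons. In knockout unselected cells (13.2%) it was 0% under the first 3 of these choices and by median CPM, 11.9% by mean CPM, 8.91% and 9.15% per kilobase. In knockout gated cells (73.6%) it was 83.8%, 83.4% and 71.9% under the first 3, 8.90% by median CPM, 64.1% and 64.8% per kilobase. Signs turned in the matched cells for Atp6v1g2 (1.93), Mcoln2 (-2.26) and Itgb3 (2.19) with the gate in wild type and Tfeb (-2.53) between genotypes in unselected cells, by spike-ins for Clcn6 with the gate in knockout (0.13), and without the top cell for Car2 between genotypes in unselected cells (-1.01). The matched cells are few (16 to 24 a group); the cause of the other changes was not tested.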
